A study of Mus musculus with 6 samples.

Results

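The genes described here are the subunits of NF-kB and the proteins that feed back on it: Rela, Relb, Nfkb1, Nfkb2, Nfkbia, Nfkbie, Nfkbiz, Tnfaip3, Birc3 and Ikbke. They were chosen by gene symbol, as every probe set (a group of short array probes for 1 transcript) that the platform annotation gives to 1 of these 10 symbols. This found 19 probe sets for 9 of the 10 genes, of 18193 named genes on the array. Nfkb1 had no probe set under its symbol in the annotation used and was not analysed here.

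NF-kB is a family of paired transcription factors that wait in the cytoplasm bound to IkB proteins. Signals from cytokine receptors activate the IKK kinases, the IkB protein is tagged and destroyed, and the freed subunits enter the nucleus and switch on inflammatory genes. Among the genes switched on are those for new IkB proteins and for enzymes that trim ubiquitin chains, which close the loop and end the response. Fibroblasts use this loop when they answer inflammatory cytokines.

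Total RNA of mouse embryonic fibroblasts that had been immortalized (MEFs, cells of embryonic connective tissue kept in culture) was hybridised to 6 Affymetrix arrays, 3 labelled PCAF-/-;GCN5-/- and 3 labelled PCAF-/-;GCN5+/-. All cells therefore lacked PCAF (gene Kat2b), and the comparison is between cells without GCN5 (gene Kat2a) and cells with 1 working copy of it, both histone acetyltransferases. The design text describes retroviruses with Cre recombinase or an empty vector, and the growth protocol describes puromycin selection. The arrays' labels give no virus, and the design text gives GCN5+/- as the genotype for either infection. GCN5-/- was taken here as Cre and GCN5+/- as vector, which the labels do not state; on that reading virus and genotype cannot be told apart. Each group held replicates A1 and A2, a duplicate preparation from line A, and replicate B, from a separately immortalized line B, so 2 lines stand behind each group and p-values measure partly the spread between duplicates.

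The labels were checked first on the targeted gene. Kat2a probe set 1422972_s_at had log2 signals of 7.97, 7.85 and 7.75 in GCN5-/- arrays A1, A2 and B, against 9.31, 10.07 and 11.51 in GCN5+/- arrays. The other Kat2a probe sets changed by -0.75 ± 0.13 (1422971_at, called lower) and 0.18 ± 0.16 (1426783_at, not called; log2, SE). At 1426783_at the A1 and A2 pairs were higher in GCN5-/-, by 0.56 and 0.38, and the B pair differed by -0.41; with line A alone it was called higher (0.47; limma adjusted p = 0.0238), against the labelled loss. The position of these probe sets against the deleted part was not analysed here. The 3 Kat2b probe sets were below the level filter. The fibroblast genes Col1a1, Col1a2, Col3a1 and Vim had mean log2 signals above 14. All 8 of 8 fibroblast markers passed the level filter, the dimmest at 7.10. Of these 4 were called lower in GCN5-/- arrays, against 4.77% of tested genes at their brightest probe set. They were Pdgfrb (log2 change -0.63 ± 0.12, SE), Pdgfra (-0.52 ± 0.13), Col1a1 (-0.35 ± 0.03) and Col3a1 (-0.16 ± 0.04). The leukocyte marker Ptprc, at a mean log2 signal of 4.64, and Itgam, at 4.93, were below the filter. The brightest macrophage and leukocyte markers were Cd53, Csf1r and Cd14. Their log2 signals were 10.54, 9.78 and 9.42 in GCN5-/- A1, against 9.66, 9.29 and 9.26 in GCN5+/- A1. Csf1r (log2 change 0.36 ± 0.12, SE) and Cd14 (0.07 ± 0.09) were not called. Of 11 macrophage and leukocyte markers with a probe set 7 passed the filter and 1 rose, Cd53 (log2 change 0.85 ± 0.09, SE). The summed linear signal of those 11 ran between 2564 and 3865 in GCN5-/- arrays, against 2200 and 2838 in GCN5+/- arrays; the part of other cells in the results was not tested. In bulk RNA, more cells of a type and more RNA per cell cannot be told apart. Of the epithelial markers 2 of 6 and of the endothelial markers 1 of 5 passed the filter, and 0 were called.

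Promoter sequences of 7 of the 9 genes were at hand, as 10 windows from 250 bases before to 50 bases after an annotated start (RefSeq, GRCm38.p6). They were searched on both strands for the kB motif, the consensus site that NF-kB binds. A match was present in 6 of the 10 windows, those of Nfkbia, Nfkbie, Nfkb2 and 1 of the 2 starts of Tnfaip3, against 4.51% of all 32851 promoter windows in the table. The genes were chosen for their role in the NF-kB loop, so this share is a description and not a test. The Nfkb2 window shown overlaps neither of the other 2 Nfkb2 windows, which overlap each other and share a match. The Birc3, Ikbke and Rela windows held no match, and 0 of the 10 held the interferon-stimulated response element, another consensus site, which 3.44% of all windows held. A match is a description of letters and not a measured binding site. The windows of the pair of genes that changed between genotypes and of 2 kB-bearing genes that did not pass the test are shown, on the gene's own strand 5′ to 3′, with kB matches in capitals.
Nfkbia, chr12:55492598-55492897, minus strand: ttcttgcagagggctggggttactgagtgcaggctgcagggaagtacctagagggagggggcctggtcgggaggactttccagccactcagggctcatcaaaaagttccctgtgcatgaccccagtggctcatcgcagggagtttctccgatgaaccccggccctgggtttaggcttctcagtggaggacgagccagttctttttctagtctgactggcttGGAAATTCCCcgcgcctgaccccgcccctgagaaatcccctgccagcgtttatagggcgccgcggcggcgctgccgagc
Tnfaip3, chr10:19015361-19015660, minus strand: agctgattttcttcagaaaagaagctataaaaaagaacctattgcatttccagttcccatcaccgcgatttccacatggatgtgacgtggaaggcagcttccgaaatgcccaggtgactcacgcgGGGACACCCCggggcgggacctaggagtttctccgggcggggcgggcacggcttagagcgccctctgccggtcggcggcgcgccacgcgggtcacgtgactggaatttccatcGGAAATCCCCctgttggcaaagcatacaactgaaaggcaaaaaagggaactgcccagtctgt
Nfkbie, chr17:45555450-45555749, plus strand: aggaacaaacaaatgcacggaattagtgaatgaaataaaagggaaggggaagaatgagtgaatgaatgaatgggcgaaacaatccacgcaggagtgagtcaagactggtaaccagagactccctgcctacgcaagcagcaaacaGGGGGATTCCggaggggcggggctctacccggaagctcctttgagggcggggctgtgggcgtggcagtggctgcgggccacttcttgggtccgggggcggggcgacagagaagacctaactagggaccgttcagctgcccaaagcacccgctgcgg
Nfkb2, chr19:46304487-46304786, plus strand: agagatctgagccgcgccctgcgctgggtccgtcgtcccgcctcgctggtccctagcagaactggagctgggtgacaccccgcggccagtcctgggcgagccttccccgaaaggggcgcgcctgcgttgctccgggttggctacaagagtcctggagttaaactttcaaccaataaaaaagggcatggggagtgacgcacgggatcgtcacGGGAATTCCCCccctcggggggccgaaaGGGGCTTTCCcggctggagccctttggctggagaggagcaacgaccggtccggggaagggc
The Nfkbia match, GGAAATTCCC, begins 29 bases before the start. Tnfaip3 has GGGACACCCC beginning 125 bases before the start and GGAAATCCCC beginning 12 bases before it. In the Nfkb2 window 2 of the 3 matches overlap in 1 run of capitals that begins 39 bases before the start, and the other begins 11 bases before it. The Nfkbie match, GGGGGATTCC, begins 106 bases before the start.

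Between genotypes, Nfkbia, which encodes the IkB protein IkB-alpha, and Tnfaip3, an enzyme that edits ubiquitin chains to shut the pathway off, were higher in GCN5-/- arrays. The subunit genes and the other feedback genes were not called in either direction. Of the 19 probe sets, all of which passed the filter on low signal, 5 rose and 0 fell: 4 of 5 for Nfkbia and 1 of 2 for Tnfaip3 (limma with cell line as a covariate, Benjamini-Hochberg adjusted p under 0.05 over 27022 probe sets). Over all tested probe sets 4.2% rose and 4.31% fell. All 3 matched pairs were higher at 10 of the 19, against 23.4% of all tested, and lower at 1. The 10 were the 5 Nfkbia and 2 Tnfaip3 probe sets, those of Rela and Relb, and Nfkb2 1429128_x_at. The 5 called probe sets belong to 2 transcripts and are not 5 independent observations. The median log2 change of the 19 was 0.17, against -0.01 over all probe sets tested. Over the 12 probe sets outside Nfkbia and Tnfaip3 it was 0.05. The GCN5-/- and GCN5+/- arrays did not overlap at 6 of the 19, each of them higher in GCN5-/-. Of all tested probe sets 17% did not overlap in either direction and 8.2% were higher. The 6 were the 5 Nfkbia probe sets and Tnfaip3 1450829_at, so they too stand for 2 transcripts.

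**Figure D1:**
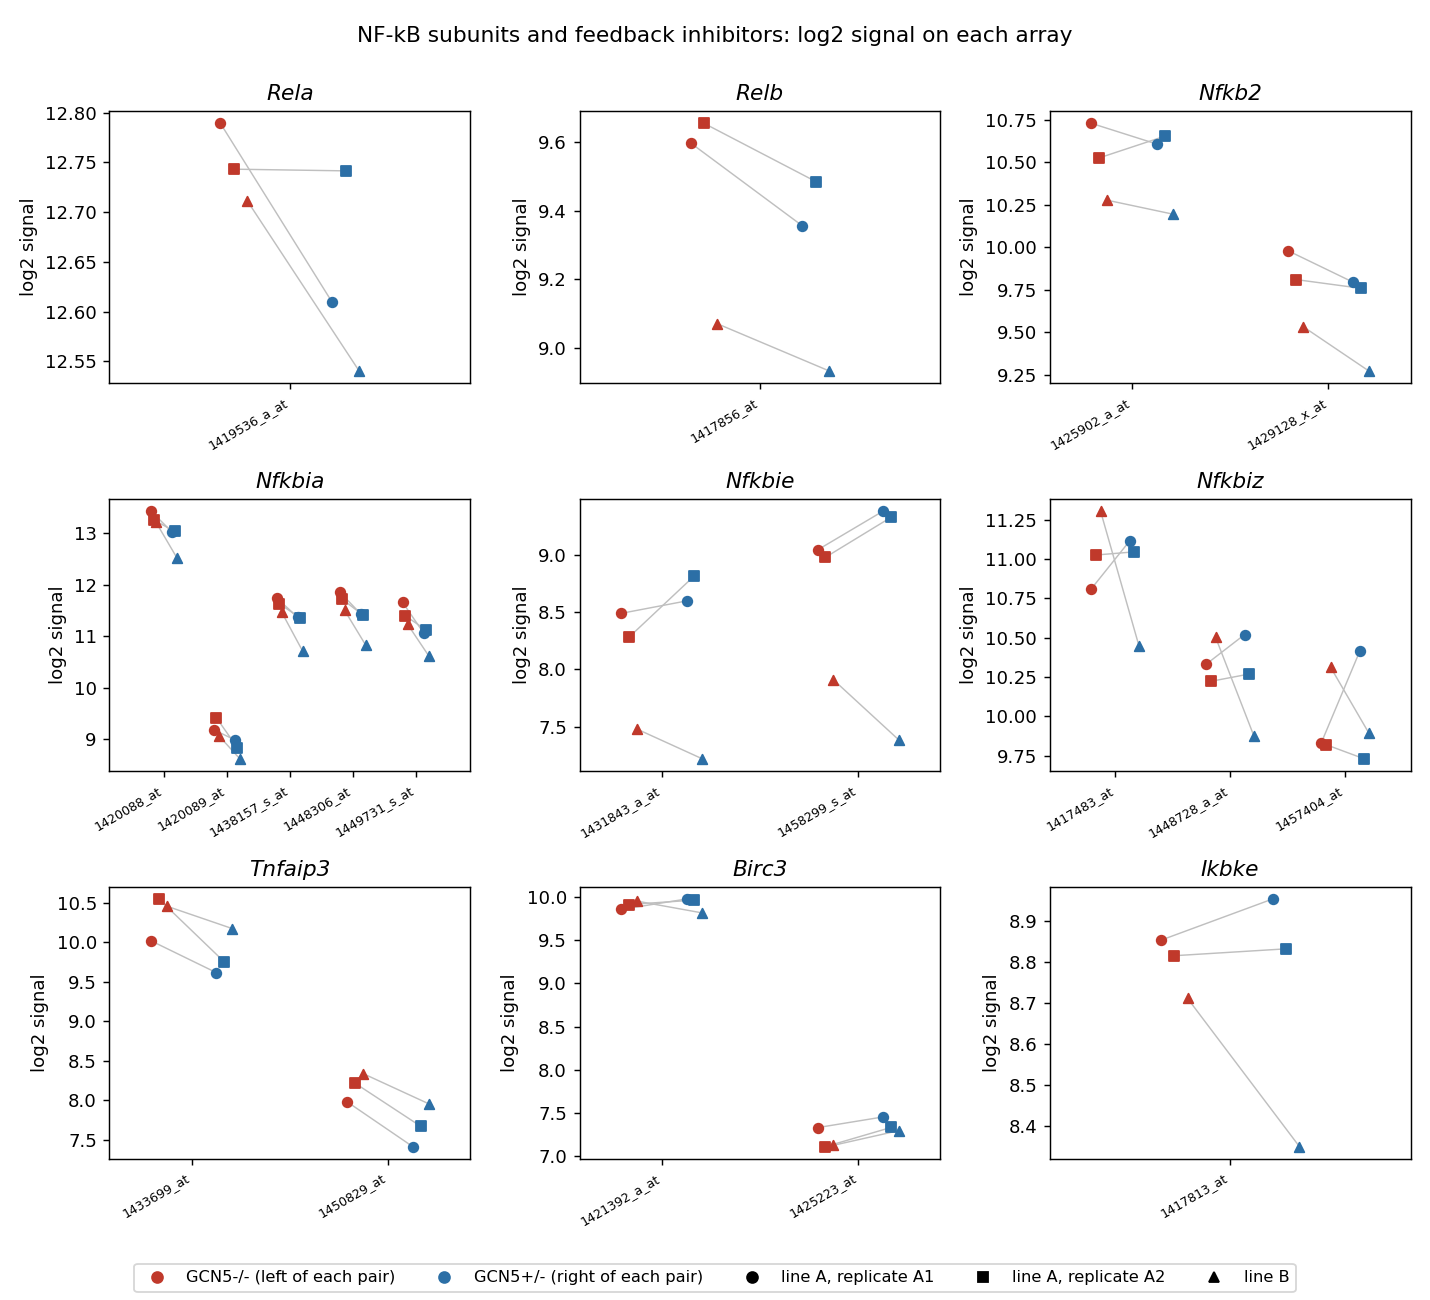
Log2 signal on each array for every probe set of 9 genes, with GCN5-/- arrays (red) left of GCN5+/- arrays (blue), grey lines joining matched replicates, and circles, squares and triangles for replicates A1, A2 and B. Each panel has its own scale, and signals of different probe sets are not comparable. All 3 GCN5-/- points of each Nfkbia probe set lie above the 3 GCN5+/- points.

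Rela encodes the main activating subunit. Its single probe set, 1419536_a_at, had log2 signals of 12.79, 12.74 and 12.71 in GCN5-/- arrays A1, A2 and B, against 12.61, 12.74 and 12.54 in GCN5+/- arrays. The groups overlapped, since GCN5-/- B lay below GCN5+/- A2, and the A2 pair was nearly level. The log2 change was 0.12 ± 0.06 (SE; 95% interval -0.02 to 0.25), and the limma adjusted p was 0.264. The interval, which is not adjusted for the number of probe sets, ends at 1.19-fold.

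Relb, the partner of the alternative branch of the pathway, had log2 signals of 9.60, 9.65 and 9.07 in GCN5-/- arrays A1, A2 and B, against 9.36, 9.48 and 8.93 in GCN5+/- arrays. Each GCN5-/- array lay above its own match, but the lines differed by more than the genotypes did. The fitted change was 0.18 ± 0.09 (SE; 95% interval -0.03 to 0.40; limma adjusted p = 0.275).

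Nfkb2 encodes a precursor that is cut to give the usual partner of the Relb protein. Probe set 1425902_a_at had 10.73, 10.53 and 10.28 in GCN5-/- arrays A1, A2 and B, against 10.61, 10.65 and 10.20 in GCN5+/- arrays, and changed by 0.03 ± 0.09 in the fit (SE; limma adjusted p = 0.903). Its pairs pointed both ways. The second probe set, 1429128_x_at, whose suffix marks probes that may also bind related transcripts, was higher in each pair, by 0.19, 0.05 and 0.26, and was not called either (0.17 ± 0.10; limma adjusted p = 0.336).

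Nfkbia was higher in GCN5-/- in each matched pair at each of its 5 probe sets. Probe set 1420088_at, the brightest, had log2 signals of 13.43, 13.26 and 13.21 in GCN5-/- arrays A1, A2 and B, against 13.03, 13.04 and 12.52 in GCN5+/- arrays. The lowest GCN5-/- array was above the highest GCN5+/- array. The log2 change was 0.44 ± 0.08 (SE), or 1.36-fold with a 95% interval of 1.19 to 1.55, and the limma adjusted p was 0.0192. This change was above that of 96.5% of all tested probe sets.

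The other Nfkbia probe sets gave nearly the same size. Probe set 1448306_at had 11.86, 11.72 and 11.50 in GCN5-/- arrays, against 11.44, 11.41 and 10.83 in GCN5+/- arrays, and rose by 0.47 ± 0.09 (SE; limma adjusted p = 0.0178). Probe set 1449731_s_at rose by 0.49 ± 0.09 (limma adjusted p = 0.0179) and 1438157_s_at by 0.47 ± 0.10 (limma adjusted p = 0.0279). The suffix s_at marks probes shared by several transcripts. The dimmest of the 5, 1420089_at, had log2 signals of 9.18, 9.42 and 9.07 in GCN5-/- arrays, against 8.99, 8.84 and 8.62 in GCN5+/- arrays, and narrowly missed the threshold at 0.41 ± 0.11 (limma adjusted p = 0.0522). Over the 5 probe sets the fold ran between 1.33 and 1.41. Line B gave the largest of the 3 pair differences at 4 of the 5, by up to 0.76.

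Tnfaip3 changed by a similar amount at both of its probe sets, with 1 past the threshold. Probe set 1450829_at had log2 signals of 7.98, 8.21 and 8.34 in GCN5-/- arrays A1, A2 and B, against 7.41, 7.67 and 7.95 in GCN5+/- arrays, and the groups did not overlap. It rose by 0.50 ± 0.12 (SE), or 1.41-fold with a 95% interval of 1.17 to 1.70 (limma adjusted p = 0.0389). Probe set 1433699_at had 10.02, 10.55 and 10.46 in GCN5-/- arrays, against 9.61, 9.75 and 10.17 in GCN5+/- arrays. Its groups overlapped, because GCN5-/- A1 lay below GCN5+/- B, although each pair was higher in GCN5-/-. Its log2 change was 0.50 ± 0.15 (limma adjusted p = 0.0790). With replicates A1, A2 and B as matched pairs (replicate block) that probe set was called (limma adjusted p = 0.0453). The call of 1450829_at was lost with no level filter (limma adjusted p = 0.0526), with line A alone (0.0690) and in each fit without 1 line A array (0.0626 to 0.160).

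The calls did not all hold when single arrays were left out. Without GCN5-/- A1, and likewise without GCN5+/- A1, 0 of the 19 probe sets were called, and without GCN5+/- A2 2 and without GCN5-/- A2 3 were, all of them Nfkbia; Tnfaip3 was called in none of these 4 fits. The Nfkbia changes over the 4 fits stayed between 0.35 and 0.58 and the Tnfaip3 changes between 0.31 and 0.62. No member was called when line was left out, treated as a random block or represented by averaged line A duplicates (0 of 19 in each), and with line A alone 3 were, all Nfkbia.

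**Figure D2:**
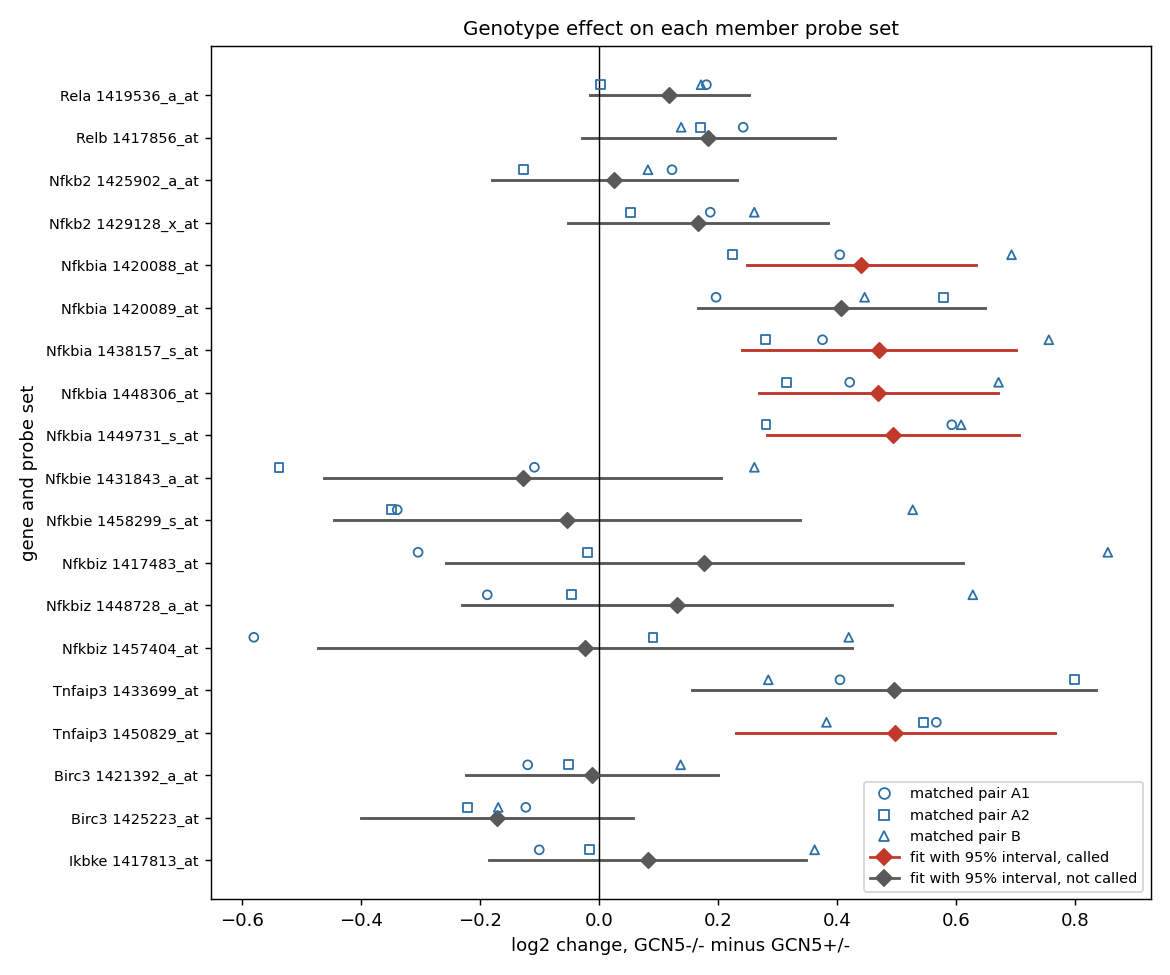
Log2 change, GCN5-/- minus GCN5+/-, for each probe set: diamonds with bars are the fitted change and its unadjusted 95% interval (red where called), and open symbols are the differences of the matched pairs A1, A2 and B. The 5 Nfkbia and 2 Tnfaip3 probe sets lie between 0.41 and 0.50, and the other 12 lie between -0.17 and 0.18.

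The remaining feedback genes were not called. Over the 12 probe sets outside Nfkbia and Tnfaip3 the log2 change lay between -0.17 and 0.18. By limma, 0 of the 12 had an unadjusted p under 0.05, against 24.4% of all tested probe sets, and their lowest adjusted p was 0.264. The widest of their unadjusted 95% intervals reached -0.47 and 0.61, so changes of the size seen at Nfkbia fall inside the interval of some of them. The widest intervals were those of Nfkbie and Nfkbiz, where at 4 of 5 probe sets both line A pairs were lower and the line B pair higher.

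Nfkbie encodes IkB-epsilon, an inhibitor of the same kind as IkB-alpha. Probe set 1458299_s_at had log2 signals of 9.05, 8.98 and 7.91 in GCN5-/- arrays A1, A2 and B, against 9.38, 9.33 and 7.38 in GCN5+/- arrays. Both line A pairs were lower in GCN5-/-, by 0.34 and 0.35, while the line B pair was higher by 0.53. The fitted change over both lines was -0.05 ± 0.17 (SE; limma adjusted p = 0.890). At 1431843_a_at the pairs differed by -0.11, -0.54 and 0.26, with a fitted change of -0.13 ± 0.14 (limma adjusted p = 0.656).

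Nfkbiz encodes IkB-zeta, a nuclear member of the IkB family that helps NF-kB to switch on a subset of its targets, Il6 and Lcn2 among them. Probe set 1417483_at had 10.81, 11.03 and 11.30 in GCN5-/- arrays A1, A2 and B, against 11.12, 11.05 and 10.45 in GCN5+/- arrays. In line B the GCN5-/- array was the highest of all 6 and the GCN5+/- array the lowest. The fitted change was 0.18 ± 0.19 (SE; limma adjusted p = 0.636). The line B pair was higher in GCN5-/- at the other probe sets as well, by 0.63 at 1448728_a_at and 0.42 at 1457404_at, where the line A pairs differed by -0.19 and -0.05 and by -0.58 and 0.09.

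Birc3, a ubiquitin ligase that is recruited to receptor complexes and is itself an NF-kB target, had log2 signals of 9.86, 9.91 and 9.95 at 1421392_a_at in GCN5-/- arrays, against 9.98, 9.96 and 9.81 in GCN5+/- arrays. The groups overlapped and the change was -0.01 ± 0.09 (SE; limma adjusted p = 0.960). Its dimmer probe set 1425223_at was lower in all 3 pairs, by 0.12, 0.22 and 0.17 in size, and was not called (-0.17 ± 0.10; limma adjusted p = 0.343). Ikbke encodes IKK-epsilon, a kinase related to the IKKs that also acts in antiviral signalling. It had 8.85, 8.82 and 8.71 in GCN5-/- arrays, against 8.95, 8.83 and 8.35 in GCN5+/- arrays, and a change of 0.08 ± 0.12 (limma adjusted p = 0.733).

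The difference in genotype effect between the lines was tested with a product term, whose 2 residual degrees of freedom both come from the line A duplicates. It was called at 0 of the 19 probe sets (limma; lowest adjusted p 0.137, for Nfkbiz 1417483_at, where the line B change minus the line A change was 1.02 ± 0.18, SE), and at 0.0481% of all tested. At an unadjusted p under 0.05 there were 5 of 19 probe sets, 2 each of Nfkbia and Nfkbiz and 1 of Nfkbie, against 7.7% of all tested. Both line A pairs were lower and the line B pair higher in GCN5-/- at 6 of the 19 probe sets, against 10.7% of all tested; these were both Nfkbie, 2 Nfkbiz, 1 Birc3 and the Ikbke probe set. The reverse pattern was seen at 0 of 19, against 11.6%.

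The lines themselves differed in 4 of these genes. In line B, 9 of 19 probe sets were lower and 0 higher than in line A (limma, line term of the same fit, adjusted p under 0.05), where 11.5% of all tested probe sets were lower; these were both Nfkbie, both Nfkb2, 4 Nfkbia and the Relb probe set. Nfkbie 1458299_s_at had the largest gap, with a mean log2 signal of 7.65 over the 2 line B arrays, against 9.18 ± 0.20 (SD, n = 4) over the line A arrays, which gives -1.54 ± 0.18 (SE; limma adjusted p = 0.000749). Its other probe set differed by -1.20 ± 0.15 (limma adjusted p = 0.00115). Relb differed by -0.52 ± 0.10 (limma adjusted p = 0.00691), and Nfkb2 by -0.39 ± 0.10 and -0.43 ± 0.10 (limma adjusted p = 0.0200 and 0.0169).

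Nfkbia shows the size of the line gap beside that of the genotype. At 1448306_at line B was lower than line A by a log2 difference of -0.44 ± 0.09 (SE; limma adjusted p = 0.0112), about the size of the genotype change with the opposite sign. The GCN5-/- array of line B, at 11.50, thus lay close to the GCN5+/- arrays of line A, at 11.44 and 11.41. Tnfaip3 had differences of 0.33 ± 0.16 and 0.33 ± 0.12, which were not called (limma adjusted p = 0.174 and 0.0960). With 1 array per genotype in line B, a trait of the line and a trait of that culture cannot be told apart.

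**Figure D3:**
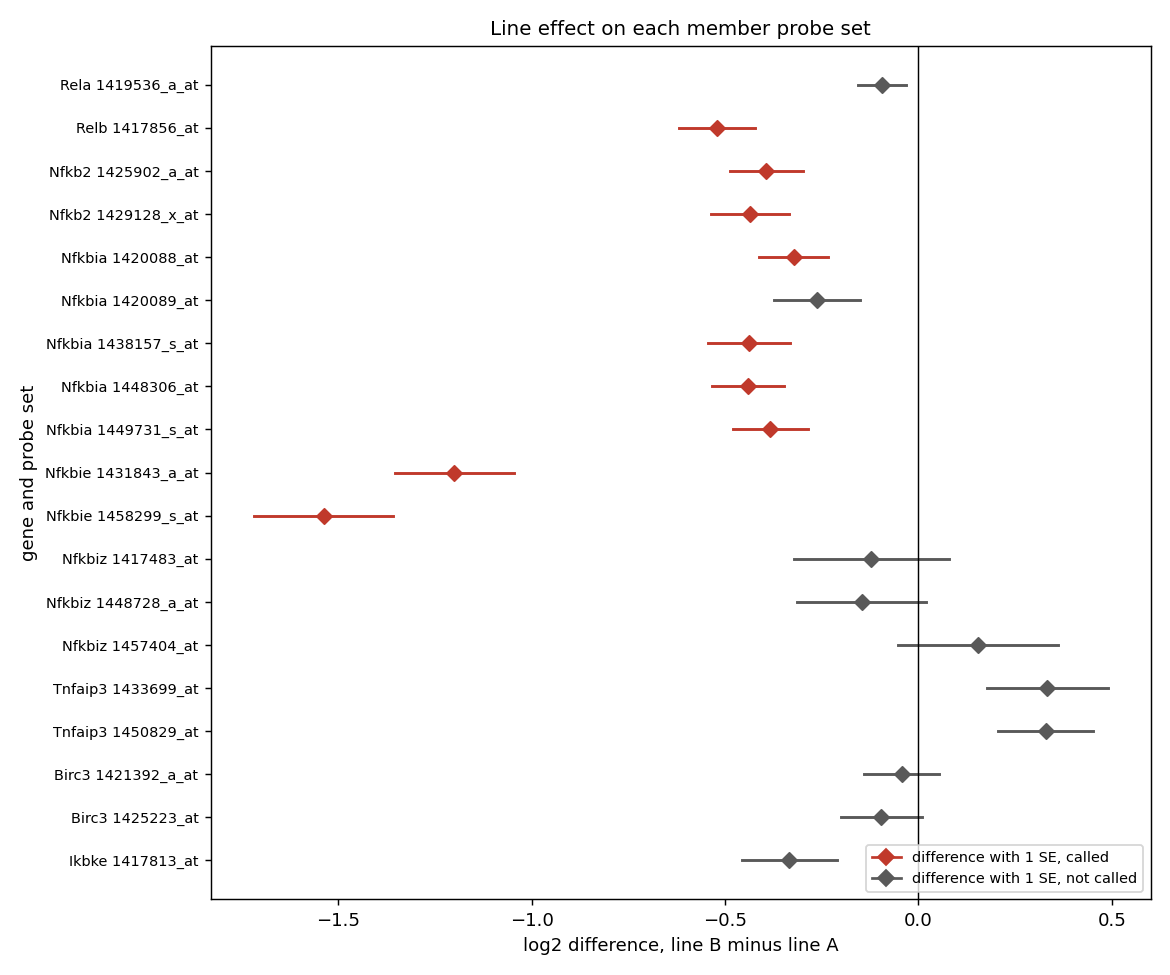
Log2 difference, line B minus line A, for each probe set from the line term of the fit; diamonds are the difference, bars 1 SE, and red marks an adjusted p under 0.05. The 9 called probe sets all lie below 0, and the Nfkbie pair lies lowest at -1.54 and -1.20.

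The profile nearest to that of Nfkbia was sought among named genes, as the smallest Euclidean distance between log2 signals centred on their mean over the 6 arrays, from probe set 1420088_at. Fam214b was nearest (distance 0.15), followed by Mafk (0.17), which encodes a small Maf transcription factor. Mafk had log2 signals of 10.85, 10.78 and 10.53 in GCN5-/- arrays, against 10.36, 10.37 and 9.92 in GCN5+/- arrays, and rose by 0.51 ± 0.08 (SE; limma adjusted p = 0.0113). Fam214b was not called (0.33 ± 0.12; limma adjusted p = 0.129). All profiles were taken over the same 6 arrays, which differ in genotype and line, and the distances are descriptions with no test.

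Other genes of the pathway were read as 4 lists, with the brightest probe set per gene; at that level 5.09% of tested genes rose and 4.77% fell. Of 13 ligand and receptor genes tested, 2 rose and 0 fell (median log2 change 0.09): Il1rap, a co-receptor for interleukin-1, by 0.74 ± 0.13 (SE; limma adjusted p = 0.0132), and Tnfrsf12a, the receptor for the cytokine TWEAK, by 0.34 ± 0.04 (limma adjusted p = 0.00297). The receptor genes Tnfrsf1a (-0.07 ± 0.08) and Ltbr (0.03 ± 0.07) were not called. Tnf and Il1b, classical activating ligands, had changes of 0.03 ± 0.10 and 0.00 ± 0.09 and were not called. Their mean log2 signals were 7.20 and 7.12, below the array medians (7.41 to 7.46). Whether these transcripts were above background was not tested, and both genes are named here after their values were seen.

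Of 26 genes for adaptors, ubiquitin ligases and kinases, 1 rose and 0 fell (median 0.09). It was Ikbkb, the kinase that marks IkB-alpha for destruction, with 11.31, 11.35 and 12.05 in GCN5-/- arrays, against 11.11, 11.07 and 11.70 in GCN5+/- arrays (0.28 ± 0.07, SE; limma adjusted p = 0.0473). It was not called with the replicate block, which left 0 of the 26. The brightest of the list, Tab2 (-0.04 ± 0.08), Bcl10 (-0.21 ± 0.07) and Irak1 (0.11 ± 0.08), were not called.

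Among 19 further Rel and IkB family members and negative regulators, 3 rose and 0 fell (median 0.16). Nlrc5, best known as an activator of MHC class I genes and also described as a brake on NF-kB, rose by 1.51 ± 0.17 (SE; limma adjusted p = 0.00251), with 9.47, 9.77 and 9.51 in GCN5-/- arrays, against 7.99, 7.72 and 8.50 in GCN5+/- arrays. Cyld, a deubiquitinase that restrains the pathway, rose by 0.54 ± 0.10 (limma adjusted p = 0.0177). Zc3h12a, a ribonuclease that degrades inflammatory transcripts, rose by 0.48 ± 0.10 (limma adjusted p = 0.0230). The family members Rel, Nfkbib, Nfkbid and Bcl3 were among the 16 not called.

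Chemokine, cytokine and enzyme genes that NF-kB is known to switch on were the list with the highest median change of the 4; the difference between lists was not tested. Of 37 such target genes tested, 17 rose and 0 fell, and their median log2 change was 0.38; by line it was 0.51 in line B and 0.33 in line A. These genes were chosen with earlier results of these arrays known, so the count is a description. The chemokine genes Cxcl1, Ccl7, Cxcl5, Ccl5 and Cxcl10 and the prostaglandin synthase gene Ptgs2 had the smallest p-values. Of the 17, 9 rose at least 2-fold, and the smallest change was 0.38 at Vcam1. Several, Cxcl10 and Ccl5 among them, are also interferon-responsive, and the part of each pathway was not tested. Without a line term 1 of the 37 was called.

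Per array, Cxcl1, a neutrophil chemokine, had log2 signals of 13.13, 13.18 and 10.81 in GCN5-/- arrays A1, A2 and B, against 11.61, 11.34 and 8.90 in GCN5+/- arrays, and rose by 1.76 ± 0.09 (SE; limma adjusted p = 7.41e-05). Ptgs2 had 12.17, 12.18 and 12.41 in GCN5-/- arrays, against 10.90, 10.45 and 11.38 in GCN5+/- arrays, and rose by 1.34 ± 0.14 (limma adjusted p = 0.00145). In neither gene did the genotypes overlap within a line. Lcn2 and Il6, which IkB-zeta helps to switch on, rose by 2.43 ± 0.38 and 1.62 ± 0.21 (limma adjusted p = 0.00963 and 0.00484; named outside the rule). Their line B pairs differed by 2.95 and 2.39. The line A pairs differed by 1.70 and 2.63 for Lcn2 and by 1.13 and 1.35 for Il6. The product term was not called at either gene (limma adjusted p = 0.947 and 0.158). A largest difference in the line B pair was not particular to Lcn2 and Il6. Other called targets had it too, Cxcl1, Ccl2, Ptx3 and Vcam1 among them. In others, Cxcl5 and Cxcl10 among them, the line B pair was the smallest. The GCN5+/- signals of Lcn2 (6.16, 6.81 and 6.01) and of Il6 in line B (5.86) lay near or below the filter level of 6.80. Whether IkB-zeta had a part was not tested.

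**Figure D4:**
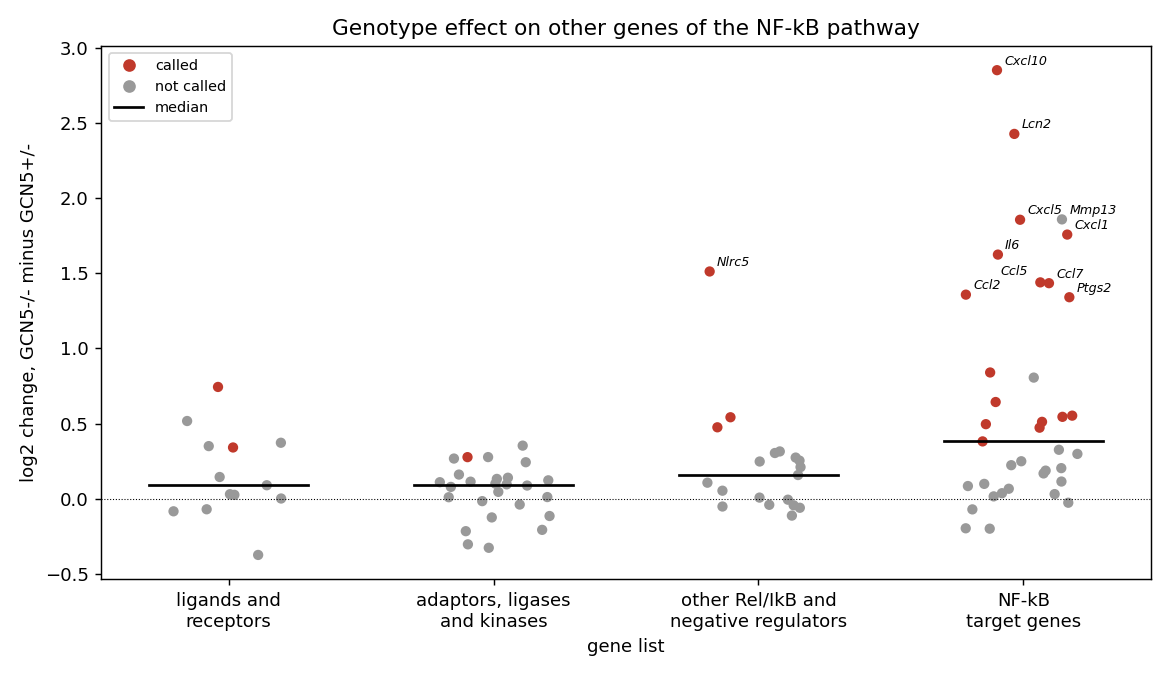
Log2 change, GCN5-/- minus GCN5+/-, of each tested gene in 4 lists of the NF-kB pathway (1 probe set per gene, points spread sideways for clarity); red points were called, and black lines are medians. The target genes reach 2.85 at Cxcl10 with a median of 0.38, and the medians of the other lists are 0.09, 0.09 and 0.16.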

How the data were processed

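The authors deposited 1 log2 signal for each probe set and array; that the scale is log2 was inferred from the range, 3.13 to 15.2. The submitters' processing notes list MAS5 (6 samples) and Partek (1 sample). Beyond these names, how the arrays were background-corrected, normalized or filtered is not given in the sources used here. Medians of the arrays lay between 7.41 and 7.46, so arrays had been scaled before deposit, which would hide a shift shared by most genes, and low signals compress folds. No 2 arrays were copies, and their number limits the precision.

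Of 45101 probe sets, 64 controls were left out, and those with a mean log2 signal at or above the 40th percentile (6.80) were tested: 27022 probe sets of 12626 named genes. R 4.3.3 and limma 3.58.1 (lmFit, eBayes with trend) fitted genotype with cell line as a covariate, checked on simulated data. Symbols came from the platform annotation, updated through Entrez identifiers to RefSeq (GRCm38.p6). The arrays were paired by replicate name, and deviations from group means correlated at 0.714, 0.727 and 0.846 for A1, A2 and B. The group means hold both lines, so the line difference enters these values. The B value therefore cannot show a pairing beyond the shared line. Crossed line A arrays (A1 with A2) correlated less, at 0.443 and 0.509. The main fit uses the line only, and the replicate block uses the A1 and A2 pairs.

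Named were all probe sets of the chosen genes and Kat2a, and up to 6 called genes per list by smallest p. Where under 3 were called, the 3 brightest were named too, except in the epithelial and endothelial lists. The 2 nearest profiles of each gene whose brightest probe set was called were also named. Other genes, Ptprc, Itgam, Col1a2, Vim, Ccl2, Ptx3 and Vcam1 among them, were named outside this rule. The genes and lists were chosen with earlier results of these data known.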

Additional observations from a re-analysis of the deposited data

How the results depend on the processing

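Under every alternative run, all Nfkbia and Tnfaip3 changes stayed positive, between 0.31 and 0.62, and the calls varied. The 5 member calls became 6 with the replicate block (matched pairs A1, A2 and B) and with quantile normalization, 5 with median centring, 4 with no filter (Tnfaip3 lost, adjusted p = 0.0526), 5 with a filter at the 60th percentile (16 probe sets tested, all 5 calls Nfkbia, with 1420089_at gained and Tnfaip3 1450829_at not tested), 7 with array weights, 3 without trend, 3 in line A alone (all Nfkbia), and 0 without a line term, with a random line block or after averaging the line A duplicates. Leaving out 1 line A array gave 0 to 3, all Nfkbia. Over all probe sets, 2299 calls became 69 without a line term, 532 with a random block and 709 with averaged duplicates. They became 645 to 1161 when 1 array was left out, and 2260 in line A alone.

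Without a line term, 0 of the genes in the first 3 lists and 1 target gene were called. Using every probe set gave 6 for ligands and receptors, 3 for adaptors and kinases, 8 for negative regulators (7 higher and 1 lower) and 26 for targets. The replicate block left 0 adaptors and kinases, and gave 3, 3 and 17 in the other lists.

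The sign reversed only at probe sets that were not called in either fit. In line A alone, Nfkb2 1425902_a_at was at -0.0026, Nfkbiz at -0.16 (1417483_at) and -0.12 (1448728_a_at), and Ikbke at -0.059. With averaged duplicates, Nfkbie 1458299_s_at was at 0.091, Nfkbiz 1457404_at at 0.087 and Birc3 1421392_a_at at 0.026. When 1 array was left out, Nfkbie 1458299_s_at ran between 0.011 and 0.047, Nfkbiz 1457404_at between -0.16 and 0.23, Birc3 1421392_a_at between -0.0064 and 0.026 and Nfkb2 1425902_a_at between -0.025 and 0.092. Line calls (9 lower in line B) and product-term calls (0) did not move with quantile normalization or no filter. The cause of the shifts in calls and signs was not tested.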
